A study of Mus musculus with 3 samples.

Results

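The genes described here are 38 interferon-stimulated genes with antiviral roles, taken from a list of gene symbols and read in mouse bone marrow dendritic cells (DCs). A gene was followed where the array holds a probe set, a group of short oligonucleotides, that names it and no other gene. Of the 38 listed genes, 35 were measured, out of 17886 genes in all. Isg15, Oas1a and Ifi44 have no such probe set in the table used and were not analysed here. The cells came from wild-type bone marrow kept in culture with GM-CSF (granulocyte-macrophage colony-stimulating factor) over 5 days, and flow cytometry separated them by PDL2, the product of Pdcd1lg2 and a ligand of the T cell receptor PD-1. In 3 groups there were PDL2-negative DCs stimulated with lipopolysaccharide (LPS, the Toll-like receptor 4 ligand of bacterial walls) at 100 ng/ml, untreated PDL2-positive DCs, and untreated PDL2-negative DCs. Each group had 1 array, so there is no replicate check, no test was possible, and p-values are not given. The number of arrays limits the precision of every value. The strain, age and number of mice and the duration of LPS exposure are not given in the sources used here.

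Type I interferons bind a receptor made of Ifnar1 and Ifnar2, whose kinases Jak1 and Tyk2 phosphorylate Stat2. It acts with Irf9 in a complex that binds the interferon-stimulated response element (ISRE) in the promoters of antiviral genes. In DCs, LPS is known to trigger interferon beta through the adaptors of Toll-like receptor 4, and the secreted interferon then acts back on the same culture. The products block entry, translation, RNA synthesis or budding of viruses, and some of them, such as Usp18, restrain the pathway.

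Promoter sequence gives the context for the expression values below. The RefSeq promoter table (build GRCm38.p6, 250 bases before to 50 bases after each start) holds 28 of the 38 listed genes. Mx1, Mx2, Oas2, Rtp4, Usp18, Zbp1, Dhx58, Parp9, Parp14 and Tor3a are not among them. The ISRE core was searched on both strands as GAAA, any 2 bases, GAAA. It was present for 11 of the 28 listed genes with an entry, against 3.99% of the 27025 genes in the table. Among the 25 measured genes with an entry, 9 held it (Bst2, Ddx60, Eif2ak2, Ifih1, Ifit1, Ifit3, Ifitm3, Oas3 and Rsad2). The gamma-activated sequence, an element of interferon gamma responses, searched as TTCNNNGAA, which reads the same on both strands, was present for 8 of 28, against 9.55% of all genes; in Ifitm3 and Bst2 it overlapped an ISRE core match. A match describes the letters in the window and shows no binding.

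The promoters of 6 genes are printed as examples. Ifit1 and Ifit3 differed in opposite directions after LPS and in PDL2-positive cells. Rsad2 and Ddx60 had large LPS differences, and Bst2 and Herc6 were higher in both. The examples are richer in matches than the measured genes as a whole. Cmpk2 and Oasl1, with larger LPS differences of 77.7-fold and 75.7-fold, hold no match and are not printed. The same holds for Ifit2 and Oasl2, which also differed in opposite directions. Capitals mark ISRE core matches, read 5′ to 3′ on the strand of the gene. The windows are chr19:34640639-34640938 (+ strand), chr19:34583279-34583578 (+), chr12:26456403-26456702 (- strand), chr8:61927837-61928136 (+), chr8:71537423-71537722 (-) and chr6:57580742-57581041 (+), all in GRCm38.p6.
Ifit1: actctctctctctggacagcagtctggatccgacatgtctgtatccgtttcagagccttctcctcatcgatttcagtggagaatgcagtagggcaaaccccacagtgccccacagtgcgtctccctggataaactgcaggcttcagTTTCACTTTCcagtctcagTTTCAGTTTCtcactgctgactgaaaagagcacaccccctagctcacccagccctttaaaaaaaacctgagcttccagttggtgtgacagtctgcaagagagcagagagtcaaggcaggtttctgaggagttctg
Ifit3: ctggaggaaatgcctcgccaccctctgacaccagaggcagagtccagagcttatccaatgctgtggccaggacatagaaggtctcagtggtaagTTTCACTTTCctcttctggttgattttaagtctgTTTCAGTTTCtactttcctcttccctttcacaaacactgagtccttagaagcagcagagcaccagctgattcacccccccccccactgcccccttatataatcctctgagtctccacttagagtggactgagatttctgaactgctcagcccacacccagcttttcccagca
Rsad2: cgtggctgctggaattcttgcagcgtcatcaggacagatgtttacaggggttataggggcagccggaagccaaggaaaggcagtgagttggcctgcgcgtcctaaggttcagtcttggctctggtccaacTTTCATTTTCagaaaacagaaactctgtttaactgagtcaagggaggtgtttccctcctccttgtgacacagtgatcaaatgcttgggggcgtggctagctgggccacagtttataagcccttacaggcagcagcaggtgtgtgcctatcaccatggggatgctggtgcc
Ddx60: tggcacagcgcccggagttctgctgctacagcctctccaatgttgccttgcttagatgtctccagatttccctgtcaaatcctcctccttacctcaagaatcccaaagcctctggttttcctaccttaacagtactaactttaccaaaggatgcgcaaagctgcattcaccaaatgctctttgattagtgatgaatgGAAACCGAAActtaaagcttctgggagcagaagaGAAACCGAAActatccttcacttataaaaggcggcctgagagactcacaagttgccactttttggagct
Bst2: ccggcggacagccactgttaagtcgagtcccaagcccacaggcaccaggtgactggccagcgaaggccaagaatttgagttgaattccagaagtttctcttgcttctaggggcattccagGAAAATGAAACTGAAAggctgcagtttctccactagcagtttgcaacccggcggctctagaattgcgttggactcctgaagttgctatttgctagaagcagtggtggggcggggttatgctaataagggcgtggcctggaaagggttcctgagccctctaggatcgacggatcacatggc
Herc6: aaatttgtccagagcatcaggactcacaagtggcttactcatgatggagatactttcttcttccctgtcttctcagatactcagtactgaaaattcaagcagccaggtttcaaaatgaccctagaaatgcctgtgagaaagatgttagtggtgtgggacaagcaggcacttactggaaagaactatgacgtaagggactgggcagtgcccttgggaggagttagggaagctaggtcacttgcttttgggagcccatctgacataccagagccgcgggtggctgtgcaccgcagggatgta
Ifit1 holds 2 matches, which begin 104 and 85 bases before the start, and Ifit3 holds 2, at 156 and 122 bases before it. In Ddx60 they begin 53 and 19 bases before the start. The 2 matches of Bst2, at 130 and 124 bases, overlap each other, and Rsad2 has 1, at 120 bases. No match to these letters lies in the Herc6 window.

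All signals below are log2 values after quantile normalization, and they can be compared between arrays for a gene but not between genes. The floor, the median of all values, was 5.58, and dimmer signals were raised to it. A fold against an array at the floor is a lower bound. A gene is called higher or lower where it differed by at least 2-fold between 2 arrays, which is a rule of size only. The robust SD of the disagreement between a gene's brightest and second brightest probe set was 0.41 in the LPS comparison, 0.29 in the PDL2 comparison and 0.44 between PDL2-positive and LPS-treated cells, on the log2 scale. It covers disagreement between probe sets on the same arrays, and neither error shared by a whole array nor variation between cultures. Pdcd1lg2 followed the sort, with 9.44 in LPS-treated cells, 11.73 in PDL2-positive cells and 8.40 in untreated PDL2-negative cells. All 11 conventional DC markers exceeded the floor on every array, the dimmest at 7.08. With LPS 2 of them were higher, against 9.17% of all genes. In the PDL2 comparison 5 of the 11 were higher, against 10.1% of all genes. These were Pdcd1lg2 itself, Irf4, Batf3, Zbtb46 and Flt3, with log2 differences of 3.33, 3.38, 2.71, 2.36 and 1.89. The cells were sorted on the product of Pdcd1lg2, so its place in that count follows from the design. Itgax was lower, at -1.67, against 13.0% of all genes lower. The part of these markers in the antiviral gene differences was not tested.

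**Figure D1:**
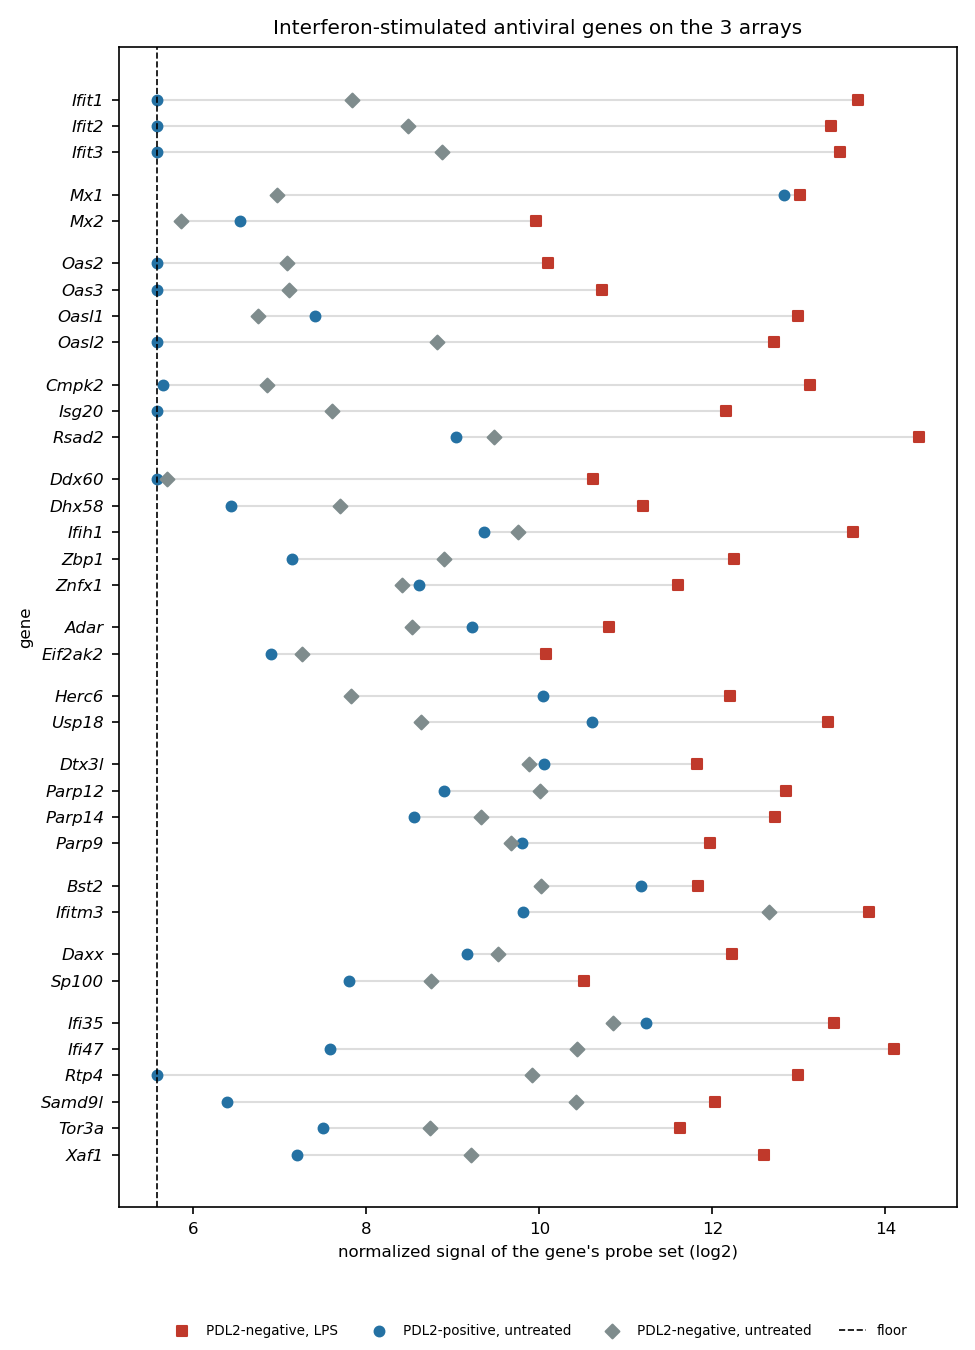
Normalized log2 signal (x axis) of the 35 measured antiviral genes (y axis, grouped by role), with 1 symbol per array for PDL2-negative cells with LPS, PDL2-positive cells and PDL2-negative cells without LPS; the dashed line is the floor, and levels compare within a gene only. The LPS symbol is the rightmost in all 35 genes, and 9 genes lie at the floor in PDL2-positive cells.

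The first question was how LPS altered these genes in PDL2-negative DCs. All 35 were at least 2-fold higher on the LPS array than on the untreated array and none was lower, against 9.17% of 11000 genes higher and 13.8% lower. Their median log2 difference was 3.40, against 0.02 over all genes, and the values ran from 1.15 for Ifitm3 to 6.28 for Cmpk2. Every one of the 35 was above the floor on both arrays. Of the 100 largest increases among genes bright enough on both arrays, 16 were in these 35.

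In untreated cells, PDL2-positive DCs did not share that pattern as a group. Relative to untreated PDL2-negative DCs, 17 of the 35 genes were lower, 4 were higher and 14 were called neither. Among these 14, Ddx60 was at the floor in PDL2-positive cells, so its difference is a bound that leaves 2-fold undecided. The others lay within 2-fold. Over all 10926 genes compared, 13.0% were lower and 10.1% higher, so the share of antiviral genes called higher, 4 of 35, was near the background. At 1.5-fold 19 of the 35 were lower and 7 higher, against 20.4% and 17.7% of all genes, and at 3-fold 11 were lower and 3 higher, against 7.35% and 5.37%. The median over the 35 was -0.95, against 0.01 over all genes. The 4 higher genes were Mx1, Usp18, Herc6 and Bst2. Both comparisons use the same untreated PDL2-negative array.

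Set directly against the LPS-treated cells, untreated PDL2-positive DCs were at least 2-fold lower for 33 of the 35 genes and higher for 0. On the log2 scale this difference equals the PDL2 difference minus the LPS difference, so it is not a separate result. The background was 12.6% lower and 15.6% higher among 11042 genes, and the median over the 35 genes was -4.27. Mx1, at -0.19, and Bst2, at -0.65, were the 2 within 2-fold. Of the 100 largest decreases among genes bright enough on both arrays, 8 were antiviral genes. The 9 antiviral genes at the floor in PDL2-positive cells, Ifit1, Ifit2 and Ifit3 among them, could not be ranked.

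**Figure D2:**
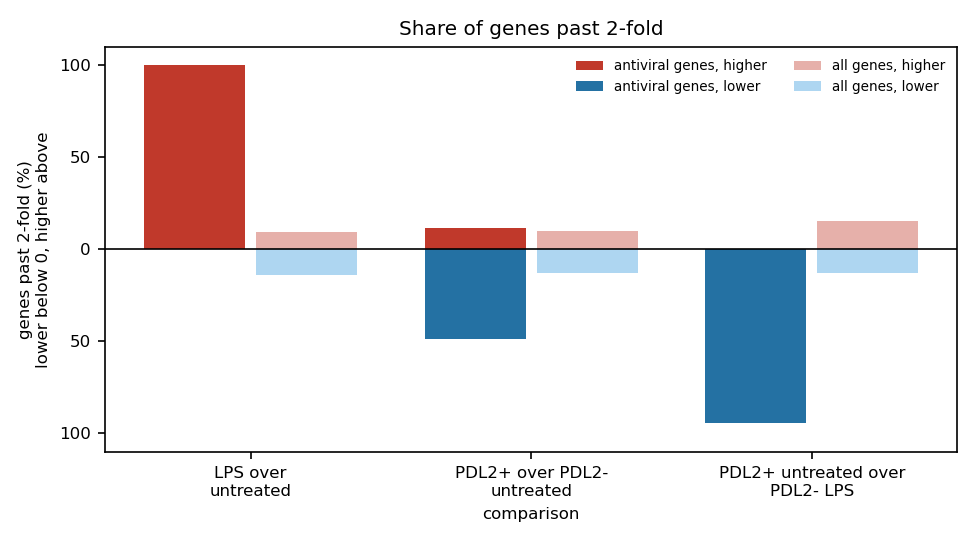
Share of genes (y axis, percent; higher above 0, lower below) past 2-fold in each comparison (x axis), for the 35 antiviral genes (dark bars, left) and all genes compared (pale bars, right). The antiviral genes were all higher with LPS, 17 of 35 were lower and 4 higher in the PDL2 comparison, and 33 of 35 were lower in PDL2-positive than in LPS-treated cells.

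The IFIT proteins, which bind the 5′ ends of foreign RNA and block its translation, spanned a wide range over the arrays. Ifit1 had a signal of 13.69 in LPS-treated cells, lay at the floor in PDL2-positive cells and had 7.83 in untreated PDL2-negative cells. Ifit2 had 13.37 with LPS, was at the floor in PDL2-positive cells and had 8.49 in untreated PDL2-negative cells. Ifit3 had 13.48 with LPS, the floor in PDL2-positive cells and 8.88 in untreated PDL2-negative cells. All 3 were thus bright with LPS, intermediate without it and not above the floor in PDL2-positive DCs. The LPS differences were 57.9-fold for Ifit1, 29.4-fold for Ifit2 and 24.2-fold for Ifit3. Relative to untreated PDL2-negative cells, PDL2-positive cells were at least 4.77-fold lower for Ifit1, at least 7.51-fold lower for Ifit2 and at least 9.86-fold lower for Ifit3. Against LPS-treated cells the bounds were at least 276-fold lower for Ifit1, at least 221-fold for Ifit2 and at least 239-fold for Ifit3, and bounds have no order. Ifit2 and Ifit3 are next to each other on chromosome 19 in the annotation, with Ifit1 beyond 3 further protein-coding genes.

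The Mx genes encode dynamin-like GTPases that trap viral nucleocapsids, and here the 2 genes parted. Mx1 had a signal of 13.02 in LPS-treated cells, 12.83 in PDL2-positive cells and 6.96 in untreated PDL2-negative cells. It was 66.4-fold higher with LPS and 58.3-fold higher in PDL2-positive cells, each relative to untreated PDL2-negative cells. Mx2 had 9.96 in LPS-treated cells, 6.54 in PDL2-positive cells and 5.86 in untreated PDL2-negative cells. It was 17.1-fold higher with LPS, but in PDL2-positive cells its difference of 0.68 on the log2 scale did not reach 2-fold. Mx1 was the only 1 of the 35 whose PDL2-positive signal came within 0.2 of its LPS signal. Each gene is read by 1 probe set, so neither has a second reading on the array. In the C57BL/6J annotation (GRCm38.p6) both are listed as transcribed pseudogenes. Several inbred mouse strains are known to carry disrupted copies, and the signal measures transcript, not a working protein.

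The 2-5A synthetases Oas2 and Oas3 make the second messenger that activates RNase L, and Oasl1 and Oasl2 are relatives with ubiquitin-like domains, of which Oasl1 lacks the enzyme activity. Oas2 had 10.10 in LPS-treated cells, the floor in PDL2-positive cells and 7.08 in untreated PDL2-negative cells. Oas3 had 10.72 with LPS, the floor in PDL2-positive cells and 7.10 in untreated PDL2-negative cells. Both were 8.10-fold and 12.3-fold higher with LPS, and at least 2.83-fold and at least 2.88-fold lower in PDL2-positive cells. Oasl1, known in mouse to hold back translation of Irf7, had 12.99 in LPS-treated cells, 7.41 in PDL2-positive cells and 6.74 in untreated PDL2-negative cells. Oasl2 had 12.71 with LPS, the floor in PDL2-positive cells and 8.82 in untreated PDL2-negative cells. Oasl1 and Oasl2 are adjacent genes on chromosome 5, and both were higher with LPS, 75.7-fold and 14.9-fold. In PDL2-positive cells they separated: Oasl1 differed by 0.66 on the log2 scale, within 2-fold, and Oasl2 was at least 9.45-fold lower.

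Rsad2 encodes viperin, which makes a chain-terminating nucleotide, and Cmpk2, its neighbour on chromosome 12, encodes a mitochondrial nucleotide kinase. Cmpk2 had 13.13 in LPS-treated cells, 5.65 in PDL2-positive cells and 6.85 in untreated PDL2-negative cells. Its LPS difference was 77.7-fold by the brightest probe set and 5.81 on the log2 scale by the other. Cmpk2, Oasl1 and Mx1, at 6.28, 6.24 and 6.05 on that scale, differ by less than the probe set disagreement of 0.41. Rsad2 had 14.39 with LPS, 9.04 in PDL2-positive cells and 9.47 in untreated PDL2-negative cells. Its brightest probe set gave 30.2-fold with LPS, from a signal near the brightest on the array. The other probe sets of Rsad2 gave larger log2 differences, 6.14 and 6.39, than the 4.92 of the brightest. Isg20, an exonuclease of single-stranded RNA, had 12.16 with LPS, the floor in PDL2-positive cells and 7.61 in untreated PDL2-negative cells, and was at least 4.08-fold lower in PDL2-positive cells. In the PDL2 comparison Cmpk2 was 2.29-fold lower by its brightest probe set, while Rsad2 at -0.44 was within 2-fold.

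All 5 sensors and RNA helicases were higher with LPS, and 2 of them were at least 2-fold lower in PDL2-positive cells. Ifih1 encodes MDA5, a sensor of long double-stranded RNA, and had 13.63 with LPS, 9.36 in PDL2-positive cells and 9.75 in untreated PDL2-negative cells. Dhx58, the related helicase LGP2, had 11.20 with LPS, 6.43 in PDL2-positive cells and 7.70 in untreated PDL2-negative cells. Zbp1, a sensor of Z-form nucleic acid that can start necroptosis, had 12.25 with LPS, 7.14 in PDL2-positive cells and 8.89 in untreated PDL2-negative cells. Dhx58 and Zbp1 were the 2 genes past 2-fold lower, by 2.40-fold and 3.38-fold with their brightest probe sets. Another probe set of Zbp1 did not reach 2-fold, at -0.55 on the log2 scale. Another of Dhx58 was at the floor in PDL2-positive cells, and its -0.21 is a bound that leaves 2-fold undecided. The helicase gene Ddx60 had 10.62 with LPS and lay just above the floor, at 5.70, in untreated PDL2-negative cells, an LPS difference of 30.4-fold. It was at the floor in PDL2-positive cells, so its PDL2 difference is a bound that leaves 2-fold undecided. Znfx1, a helicase that binds viral RNA at mitochondria, was 9.13-fold higher with LPS and differed by 0.19 on the log2 scale in PDL2-positive cells.

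Eif2ak2 encodes PKR, a kinase that halts translation on double-stranded RNA, and Adar encodes an enzyme that edits such RNA and so hides self RNA from the sensors. Eif2ak2 had 10.08 with LPS, 6.90 in PDL2-positive cells and 7.25 in untreated PDL2-negative cells. Adar had 10.80 with LPS, 9.22 in PDL2-positive cells and 8.53 in untreated PDL2-negative cells. They were 7.08-fold and 4.83-fold higher with LPS, and both lay within 2-fold in PDL2-positive cells. The probe sets of Adar differed in direction there, from -0.35 to 0.86.

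The enzymes around ISG15, a ubiquitin-like modifier, had signals above those of untreated PDL2-negative cells both with LPS and in PDL2-positive DCs. Usp18, the protease that removes ISG15 from proteins and also blocks the interferon receptor, had 13.33 with LPS, 10.61 in PDL2-positive cells and 8.63 in untreated PDL2-negative cells. Herc6, the main ISG15 ligase in mouse, had 12.20 with LPS, 10.05 in PDL2-positive cells and 7.82 in untreated PDL2-negative cells. With LPS they were 26.1-fold and 20.8-fold higher, and in PDL2-positive cells 3.94-fold and 4.67-fold higher. All 4 probe sets of Herc6 were past 2-fold in PDL2-positive cells, with log2 differences of 1.66 to 2.73, whereas Usp18 has a single probe set. The activating enzyme Uba7 and the conjugating enzyme Ube2l6, which are not in the gene list, ran alongside. Uba7 had 11.26 with LPS, 10.32 in PDL2-positive cells and 8.75 in untreated PDL2-negative cells. Ube2l6 had 9.11 with LPS, 7.74 in PDL2-positive cells and 6.14 in untreated PDL2-negative cells, which puts it 1.60 higher on the log2 scale in PDL2-positive cells. A dimmer probe set of Uba7 gave 0.69, short of 2-fold.

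Bst2 and Ifitm3 act at membranes, Bst2 (tetherin) by holding budding virions and Ifitm3 by blocking fusion in endosomes, and they parted in PDL2-positive cells. Bst2 had 11.83 with LPS, 11.18 in PDL2-positive cells and 10.02 in untreated PDL2-negative cells. Ifitm3 had 13.81 with LPS, 9.81 in PDL2-positive cells and 12.66 in untreated PDL2-negative cells. Bst2 was 3.51-fold higher with LPS and 2.24-fold higher in PDL2-positive cells. Ifitm3 had the smallest LPS difference of the 35, 2.22-fold, and was 7.19-fold lower in PDL2-positive cells. Both promoters hold the ISRE core, as printed above for Bst2. Bst2 is also a marker of plasmacytoid DCs, and 7 of the 9 other markers of that cell type exceeded the floor somewhere. PDL2-positive cells had 2 of those 7 higher, Spib and Pacsin1, by log2 differences of 2.86 and 1.65. They had 2 lower, Ccr9 and Siglech, at -2.25 and -1.79. Over all genes compared, 10.1% were higher and 13.0% lower. Siglech had 7.35 with LPS, 6.15 in PDL2-positive cells and 7.94 in untreated PDL2-negative cells. The part of these plasmacytoid DC markers in the Bst2 signal was not tested.

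Parp9 and Dtx3l, partner proteins that together attach ubiquitin, lie side by side on chromosome 16 with Parp14, an ADP-ribosyltransferase. Parp9 had 11.97 with LPS, 9.80 in PDL2-positive cells and 9.67 in untreated PDL2-negative cells. Dtx3l had 11.83 with LPS, 10.06 in PDL2-positive cells and 9.88 in untreated PDL2-negative cells, so the partners differed alike: 4.93-fold and 3.87-fold higher with LPS, and by 0.13 and 0.18 on the log2 scale in PDL2-positive cells. Parp14 had 12.73 with LPS, 8.55 in PDL2-positive cells and 9.32 in untreated PDL2-negative cells. Parp12, an enzyme that can block translation, was 7.17-fold higher with LPS and 2.16-fold lower in PDL2-positive cells. The nuclear body proteins Sp100 and Daxx, which silence incoming viral DNA, were 3.41-fold and 6.54-fold higher with LPS. In PDL2-positive cells Sp100 stood at -0.95, just inside the 2-fold line, and Daxx at -0.36, while Parp12 at -1.11 lay just outside it.

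The remaining genes included Rtp4 and Samd9l, which were among the furthest below their untreated PDL2-negative signals in PDL2-positive cells. Rtp4, known in mouse as a regulator of interferon responses that binds RNA, had 13.00 with LPS, the floor in PDL2-positive cells and 9.91 in untreated PDL2-negative cells. Samd9l, an endosome-associated restriction factor, had 12.03 with LPS, 6.39 in PDL2-positive cells and 10.42 in untreated PDL2-negative cells. Ifi47, an immunity-related GTPase, had 14.10 with LPS, 7.58 in PDL2-positive cells and 10.44 in untreated PDL2-negative cells. All 3 were therefore far dimmer in PDL2-positive DCs than on either other array: relative to untreated PDL2-negative cells, Rtp4 was at least 20.2-fold, Samd9l 16.4-fold and Ifi47 7.23-fold lower. Samd9l combined this with 1 of the smallest LPS differences, 3.05-fold. Xaf1, a pro-apoptotic protein, was 10.5-fold higher with LPS and 4.03-fold lower in PDL2-positive cells, and Tor3a, an endoplasmic reticulum ATPase, was 7.43-fold higher and 2.35-fold lower. Ifi35, which had 13.41 with LPS, 11.23 in PDL2-positive cells and 10.85 in untreated PDL2-negative cells, was the only 1 of these 6 genes within 2-fold in PDL2-positive cells.

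**Figure D3:**
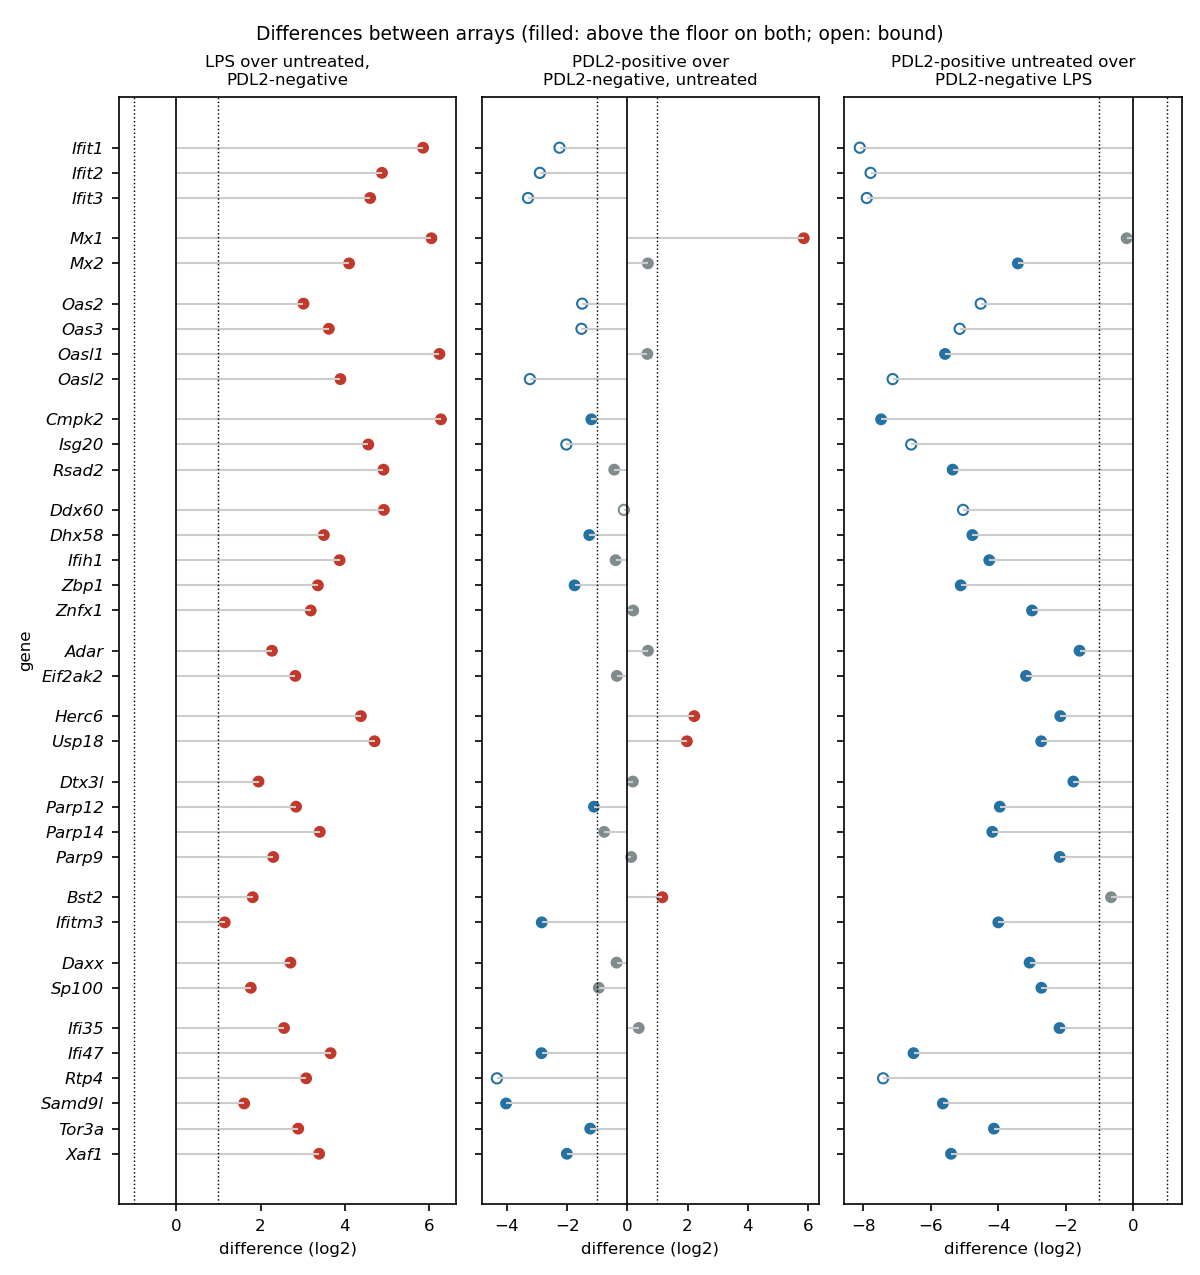
Log2 difference (x axis) of each of the 35 antiviral genes (y axis) for LPS-treated over untreated PDL2-negative cells, PDL2-positive over PDL2-negative cells without LPS, and PDL2-positive over LPS-treated cells; open circles are bounds against the floor, dotted lines mark 2-fold, and the panels share arrays. Mx1, Usp18, Herc6 and Bst2 lie right of the 2-fold line in the middle panel, and only Mx1 and Bst2 lie inside it in the right panel.

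The genes with several probe sets allow a technical check. Of the 35, 15 have more than 1 probe set. With LPS, all 18 other probe sets that could be read on both arrays had the direction and the 2-fold call of the brightest. In the PDL2 comparison, 16 of 17 had the same direction and 13 of 17 the same call. Agreement on size was poorer for the genes called lower in PDL2-positive cells. Of these 17, 6 have another probe set (Cmpk2, Rtp4, Zbp1, Dhx58, Xaf1 and Tor3a). Above the floor were 5 of the other probe sets, from 4 genes. All 5 were lower in PDL2-positive cells. Those above the floor on both arrays gave log2 differences of -0.76 to -0.41, short of 2-fold. That of Dhx58 was at the floor in PDL2-positive cells, so its -0.21 is a bound that leaves 2-fold undecided. The other 11 genes called lower rest on 1 probe set each.

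**Figure D4:**
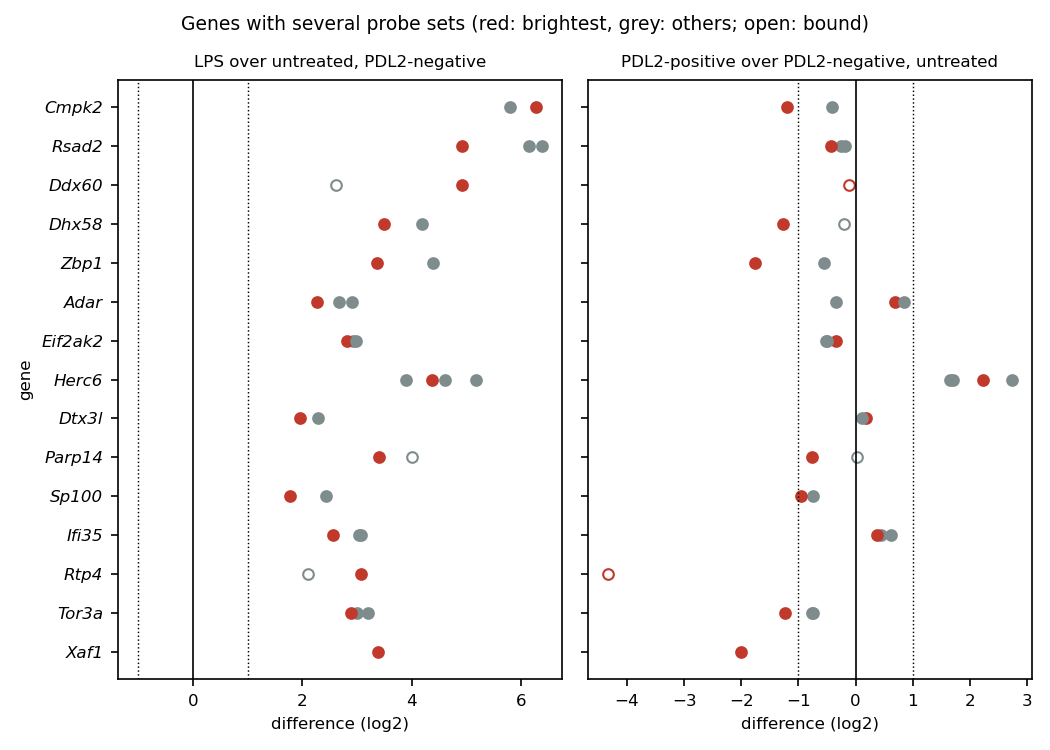
Log2 difference (x axis) of every probe set bright enough to compare for the 15 genes with several probe sets (y axis), with LPS over untreated on the left and PDL2-positive over PDL2-negative on the right; red marks the brightest probe set, grey the others, open circles bounds, and dotted lines 2-fold. On the left all points lie right of the 2-fold line, and on the right the grey points of Cmpk2, Zbp1, Dhx58 and Tor3a lie inside it.

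Promoter letters and the PDL2 difference can be set side by side, as a description. The PDL2 shares over all genes were 10.1% higher and 13.0% lower. The 9 measured genes with an ISRE core match had a median log2 difference of 3.87 with LPS and -0.44 in PDL2-positive cells, with 1 higher and 4 lower. The 16 with a promoter entry and no match had 3.29 with LPS and -1.03 in PDL2-positive cells, with 1 higher and 8 lower. Both sets span both directions: Bst2 (1.16) and Ifit3 (at most -3.30) each hold 2 matches.

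Upstream of these genes, the interferon transcripts that could be read were barely seen. Of 15 interferon ligand genes listed, 8 were measured, and no type III ligand was among them. At the floor on all 3 arrays were 6 of the 8, Ifnb1 among them. Ifna1, 1 of the other 2, had 6.29 with LPS, 5.62 in PDL2-positive cells and 5.78 in untreated PDL2-negative cells. Receptor genes were above the floor. Ifnar1 had 10.65 with LPS, 9.48 in PDL2-positive cells and 9.53 in untreated PDL2-negative cells. Ifnar2 had 11.13 with LPS, 10.12 in PDL2-positive cells and 10.77 in untreated PDL2-negative cells; its brightest probe set was within 2-fold in the PDL2 comparison, and the 2 dimmer ones gave -1.53 and -1.77. A second probe set of Ifnar1 gave 1.37 in PDL2-positive cells against -0.05 for the brightest. Ifngr1, a subunit of the interferon gamma receptor, was lower in both, by log2 differences of -2.17 with LPS and -2.40 in PDL2-positive cells.

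Signalling genes were also read. Their counts stand beside shares over all genes of 9.17% higher and 13.8% lower with LPS. In PDL2-positive cells those shares were 10.1% higher and 13.0% lower. With LPS 3 of 5 JAK-STAT genes measured were higher, PDL2-positive cells had 2 of the 5 higher, and 0 were lower in either. Stat2 had 10.20 with LPS, 6.82 in PDL2-positive cells and 6.70 in untreated PDL2-negative cells, and both its probe sets differed by 0.12 on the log2 scale in PDL2-positive cells. Irf9 had 9.98 with LPS, 9.05 in PDL2-positive cells and 8.32 in untreated PDL2-negative cells. Jak2, the kinase of the interferon gamma and many cytokine receptors, had 12.94 with LPS, 13.33 in PDL2-positive cells and 10.30 in untreated PDL2-negative cells. Among 6 interferon regulatory factors, LPS-treated cells had 2 higher, and PDL2-positive cells had 2 higher and 1 lower. Irf7, the factor that amplifies interferon production, had 12.42 with LPS, 6.88 in PDL2-positive cells and 8.06 in untreated PDL2-negative cells. Irf8 had 11.33 with LPS, 13.35 in PDL2-positive cells and 10.95 in untreated PDL2-negative cells, and Irf1 differed by 2.62 with LPS and 1.45 in PDL2-positive cells.

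Of 17 sensing and adaptor genes upstream of interferon, LPS-treated cells had 8 higher and 2 lower, and PDL2-positive cells 1 higher and 9 lower. The shares over all genes were 9.17% higher and 13.8% lower with LPS, and 10.1% and 13.0% in PDL2-positive cells. Tlr4 had 8.10 with LPS, 6.26 in PDL2-positive cells and 10.16 in untreated PDL2-negative cells. Its co-receptor Cd14 had 13.86 with LPS, 7.65 in PDL2-positive cells and 12.11 in untreated PDL2-negative cells. Ikbke, a kinase that activates interferon regulatory factors, had 11.00 with LPS, 6.42 in PDL2-positive cells and 8.85 in untreated PDL2-negative cells. Tlr4 was thus lower in both comparisons, and Cd14 and Ikbke were higher with LPS and lower in PDL2-positive cells. The RNA sensor gene Ddx58, which encodes RIG-I, had log2 differences of 3.38 with LPS and -2.37 in PDL2-positive cells. The feedback inhibitors divided as well: Socs1 had 10.58 with LPS, 7.17 in PDL2-positive cells and 5.95 in untreated PDL2-negative cells, and Socs3 had 13.46 with LPS, 7.99 in PDL2-positive cells and 9.97 in untreated PDL2-negative cells. Of 8 such inhibitors, LPS-treated cells had 5 higher and 0 lower, and PDL2-positive cells 3 higher, Usp18 among them, and 3 lower.

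**Figure D5:**
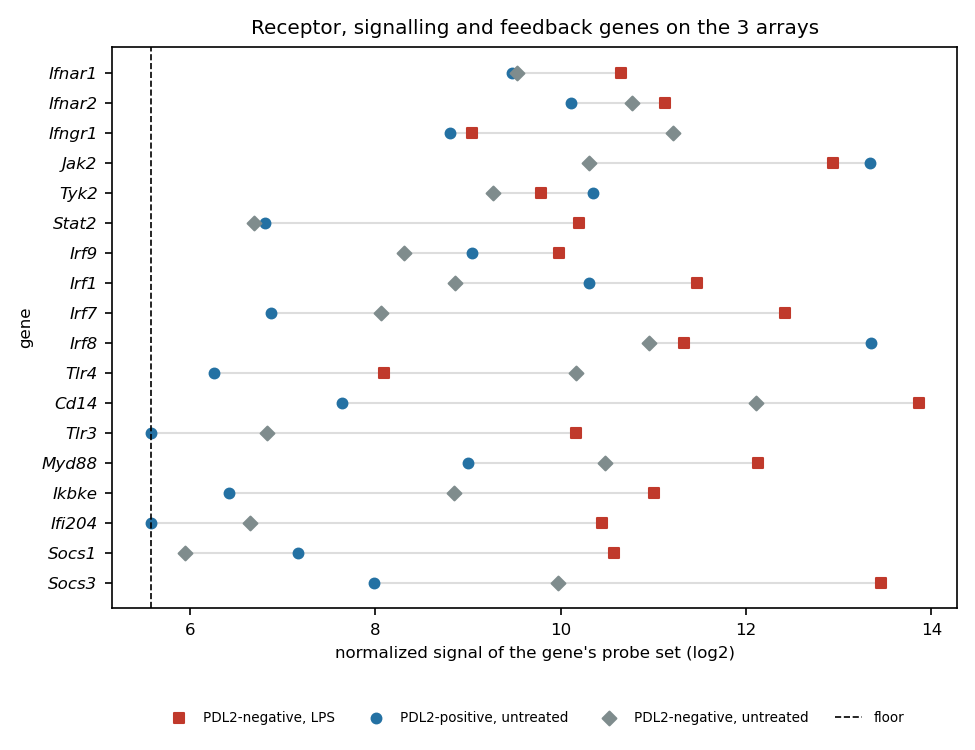
Normalized log2 signal (x axis) of 18 receptor, signalling, sensing and feedback genes of the interferon pathway (y axis), with 1 symbol per array and the dashed line at the floor; levels compare within a gene only. Jak2 and Irf8 are brightest in PDL2-positive cells, Stat2 and Irf7 in LPS-treated cells, and Tlr4 in untreated PDL2-negative cells.

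Of 22 other interferon-responsive and antiviral genes compared, LPS-treated cells had 15 higher and 1 lower, and PDL2-positive cells 6 higher and 8 lower. Among all genes, 9.17% were higher and 13.8% lower with LPS, and 10.1% and 13.0% in PDL2-positive cells. Those higher in both include Apobec3, a cytidine deaminase that mutates retroviral DNA, with 10.86 both in LPS-treated and in PDL2-positive cells and 8.71 in untreated PDL2-negative cells. The chemokine gene Ccl5 had 14.44 with LPS, 14.20 in PDL2-positive cells and 8.86 in untreated PDL2-negative cells, and was thus bright in both, as Mx1 was. Cxcl10, another interferon-responsive chemokine gene, had 13.95 with LPS, 5.74 in PDL2-positive cells and 7.49 in untreated PDL2-negative cells, and was thus far brighter with LPS than on the other arrays. Epsti1 was brightest in PDL2-positive cells, with 11.36 with LPS, 13.45 in PDL2-positive cells and 9.86 in untreated PDL2-negative cells, and its 4 probe sets ranged from 3.01 to 4.21 in the PDL2 comparison. Lgals9, a galectin gene, stood at the other end, with a log2 difference of -4.61 in PDL2-positive cells and 1.55 with LPS.

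Markers of other cells moved beside these differences. For comparison, 9.17% of all genes were higher and 13.8% lower with LPS, and 10.1% and 13.0% in PDL2-positive cells. All 11 macrophage and monocyte markers measured were lower in PDL2-positive than in untreated PDL2-negative cells, with a mean log2 level of 7.65 in PDL2-positive cells, against 12.06 in untreated PDL2-negative cells. With LPS 1 was higher and 4 were lower, and the mean was 11.57 in LPS-treated cells. Mrc1 was at the floor in PDL2-positive cells. In bulk cells, fewer cells of a type and less RNA per cell cannot be told apart, and the part of these markers in the antiviral gene differences was not tested. Of 10 neutrophil markers, 5 were lower with LPS and 1 was lower in PDL2-positive cells, with 0 higher in either. Of 8 T, B and NK cell markers, 5 were at the floor on all 3 arrays.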

How the data were processed

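Total RNA of 3 groups of sorted mouse bone marrow DCs was biotin-labelled and read on 1 oligonucleotide array each, per the labels. The deposited table holds log2 signals per probe set, summarised by the authors, as the range shows (medians 5.56, 5.59 and 5.59 for LPS-treated, PDL2-positive and untreated PDL2-negative cells). The background correction, normalization and summary method are not given in the sources used here, and with no scanner values the centring applied by the authors stays unknown. The 75th percentiles differed by 0.22, so 38533 probe sets (13 controls left out) were quantile-normalized (Python 3.11.15, numpy 2.4.6, pandas 2.3.3). Probe sets naming 1 gene (33974) were assigned through the platform annotation, with symbols updated by Entrez number where RefSeq held it (33787). Those naming several genes (449) or none (4110) were not used for genes. The brightest mean probe set stood for each gene. A gene entered a comparison if above the floor on at least 1 of its arrays. The procedure was tested on simulated arrays. Listed genes were named by role, all of them accounted for, and values given by array for those with the largest or opposite differences. The gene list, the pathway and marker lists and the promoter motifs were chosen with earlier results of these data known. Alternatives tried were the deposited values, median centring, a floor at the 75th percentile, no floor, averaged or second brightest probe sets, and other fold limits.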

Additional observations from a re-analysis of the deposited data

How the results depend on the processing

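The 35 antiviral genes were all at least 2-fold higher with LPS under the deposited values, median centring, the floor at the 75th percentile, no floor and averaged probe sets, and 34 were at 3-fold. With the second brightest probe set, available for fewer genes, all 14 compared were higher with LPS and all 14 were lower in PDL2-positive than in LPS-treated cells, with a median of -3.33 there. In PDL2-positive against PDL2-negative untreated cells, 12 second brightest probe sets were above the floor, with a median of -0.28. By the 2-fold rule 1 was called higher and 0 were called lower. Bounds among them, such as that of Dhx58, leave 2-fold undecided. The floor at the 75th percentile left 26 genes in that comparison, of which 9 were lower (median -0.56), and gave a median of -3.82 against LPS-treated cells. Averaged probe sets gave a median of -0.66 in the PDL2 comparison. At 1.5-fold 7 were higher and 19 lower there, the count of higher genes being near the share of all genes, and at 3-fold 3 were higher and 11 lower. Some of these settings compared fewer genes, and the cause of these shifts was not tested. No gene called past 2-fold changed sign under any of these settings. The deposited values moved the median LPS difference over all genes to -0.09, against 0.02, and that over the antiviral genes by less than 0.1. No paired analysis was possible because each group has 1 array. No array could be left out for the same reason. Probe sets near the floor or near the top of the scale limit what differences can be read.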

Other observations

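Relatives of the antiviral genes that are outside the list were looked up by symbol after the values of the listed genes had been seen. Beside the counts below, 9.17% of all genes were higher and 13.8% lower with LPS, and 10.1% and 13.0% in PDL2-positive cells. Ifit1bl1, an Ifit1-like gene, had 13.33 in LPS-treated cells, the floor in PDL2-positive cells and 9.12 in untreated PDL2-negative cells. It thus had the order seen for the listed Ifit genes. Ifit1bl2 had 6.25 with LPS and was at the floor on both other arrays. Its LPS difference was at least 0.67 on the log2 scale, which leaves 2-fold undecided. Of 5 other genes with Oas1 symbols, 4 could be compared with LPS and 1 was higher. That gene, Oas1b, a synthetase relative linked to flavivirus resistance in mouse, was higher by 1.89 with LPS and differed by -0.28 in PDL2-positive cells, on the log2 scale. Of 10 further genes with Parp in their symbols, 8 could be compared: LPS-treated cells had 3 higher and 1 lower, and PDL2-positive cells 4 higher and 1 lower. Parp11 had 10.02 with LPS, 8.12 in PDL2-positive cells and 7.06 in untreated PDL2-negative cells. Parp1, a DNA repair enzyme, was lower with LPS, at 8.39 against 10.37 in untreated PDL2-negative cells. Herc1, Herc2, Herc3 and Herc4, the other genes with Herc symbols, all lay within 2-fold in both comparisons, unlike Herc6. Ifitm1 and Ifitm2 lay within 2-fold with LPS, at -0.45 and 0.58, and at -0.88 and -1.24 in PDL2-positive cells, where Ifitm3 stood at -2.85. Ifitm6 was lower in both, by -1.05 with LPS and -1.13 in PDL2-positive cells, and 3 further genes with Ifitm symbols were at the floor throughout.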
